A study of Mus musculus with 12 samples.

Results

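The nuclei described here carried transcripts of GABA synthesis together with those of Onecut transcription factors or of monoamine handling. A nucleus with 500 to 10000 detected genes was selected if Gad1 and Gad2 together reached at least 1 unique molecular identifier (UMI, 1 captured transcript) and at least 2 of the 4 genes Onecut1, Ddc, Slc18a2 and Onecut2 had a UMI. It also had no UMI of the glutamate transporters Slc17a7 and Slc17a6, and under 2 UMIs each of Esr1 and of Mobp. The rule selected 1924 of 184957 retained nuclei and of 54265 inhibitory nuclei, which are those with Gad1 or Gad2 and neither glutamate transporter. They are called selected nuclei below, because their other transcripts did not form 1 cell type.

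The nuclei came from the left hippocampus of female mice, profiled by droplet-based single-nucleus RNA sequencing (snRNA-seq) of sorted nuclei. Every library is labeled hippocampus, and whether nuclei of neighbouring tissue were among them was not tested. The 3xTg-AD mice, on a mixed B6;129 background, carry the human APPSwe and tauP301L transgenes and a knock-in allele, and the WT mice were described as littermates. Each of 12 libraries came from 1 mouse, with 3 mice for each genotype and age. The replicate numbers were 1, 5 and 9 for 3xTg-AD and 3, 7 and 11 for WT at 6 months, and 2, 6 and 10 for 3xTg-AD and 4, 8 and 12 for WT at 12 months. The transgenes are known to be driven by the neuronal Thy1 promoter, which is not particular to inhibitory neurons.

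Onecut1, Onecut2 and Onecut3 are homeodomain transcription factors with a cut domain that act in developing liver, pancreas, retina, spinal cord and brain, where hypothalamic and midbrain neurons use them. Ddc is aromatic L-amino acid decarboxylase, which makes dopamine from L-DOPA and serotonin from 5-hydroxytryptophan. Slc18a2 is the vesicular monoamine transporter VMAT2, which loads dopamine, noradrenaline, serotonin and histamine into vesicles. Gad1 and Gad2 are the glutamate decarboxylases that make GABA, and Slc32a1 loads GABA into vesicles. Neurons with Ddc but without tyrosine hydroxylase (Th) or tryptophan hydroxylase (Tph2) are known in many brain regions.

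The libraries held 79177051 to 128323908 UMIs, and the selected nuclei of a library summed to 1009652 to 2410248. A library gave 110 to 229 selected nuclei, with a median of 9180 UMIs over all of them. Of 181379 distinct barcodes, 4216 occurred in more than 1 library, none of them in 2 selected nuclei, but 89 selected nuclei shared their barcode with a retained nucleus of another library. The mouse genes of the transgenes did not mark the genotype in these nuclei. App, Mapt and Thy1 did not pass the test between genotypes at either age, and the 3′ reads were aligned to the mouse genome, so that human transgene transcripts were not counted as such.

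Most selected nuclei met the rule narrowly. Of the 1924, 1591 (82.7%) had 2 of the 4 genes, 295 (15.3%) had 3 and 38 (1.98%) had all 4. The 4 genes summed to exactly 2 UMIs in 657 nuclei (34.1%) and to at least 5 in 586 (30.5%). Gad1 and Gad2 together gave 1 UMI in 271 (14.1%), Esr1 gave 1 UMI in 208 and Mobp in 62. Just outside the rule were 10545 inhibitory nuclei with 1 of the 4 genes, whose median of 8234 UMIs was lower, and 1004 nuclei with 2 or more of the 4 genes but without Gad1 or Gad2. A further 706 had a glutamate transporter UMI, 203 had Esr1 of 2 or more and 122 had Mobp of 2 or more. Over nuclei of any kind, 6299 had 2 or more of the 4 genes, with a median of 0 UMIs of Gad1 and Gad2. The 1004 are therefore not all such nuclei without Gad1 or Gad2, and the 4 genes were not particular to inhibitory nuclei. When every nucleus was thinned to 2000 UMIs and the 29604 shallower nuclei were left out, 293 of 155353 nuclei met the rule and 246 of them were among the 1924. Membership was tied to depth, as any rule on detected UMIs is, so that this loss is a description and not a test.

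Most nuclei held a combination that crossed the roles of the Onecut and the monoamine genes. Onecut2 was detected in 1378, Ddc in 1138, Slc18a2 in 997 and Onecut1 in 706. The most frequent combinations were Ddc with Onecut2 in 397 nuclei, Slc18a2 with Onecut2 in 384, Ddc with Slc18a2 in 360 and Onecut1 with Onecut2 in 311. An Onecut gene together with a monoamine gene was found in 1253 nuclei (65.1%), so that the remaining nuclei held only Onecut genes or only monoamine genes. These values chose the nuclei and are a description.

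**Figure D1:**
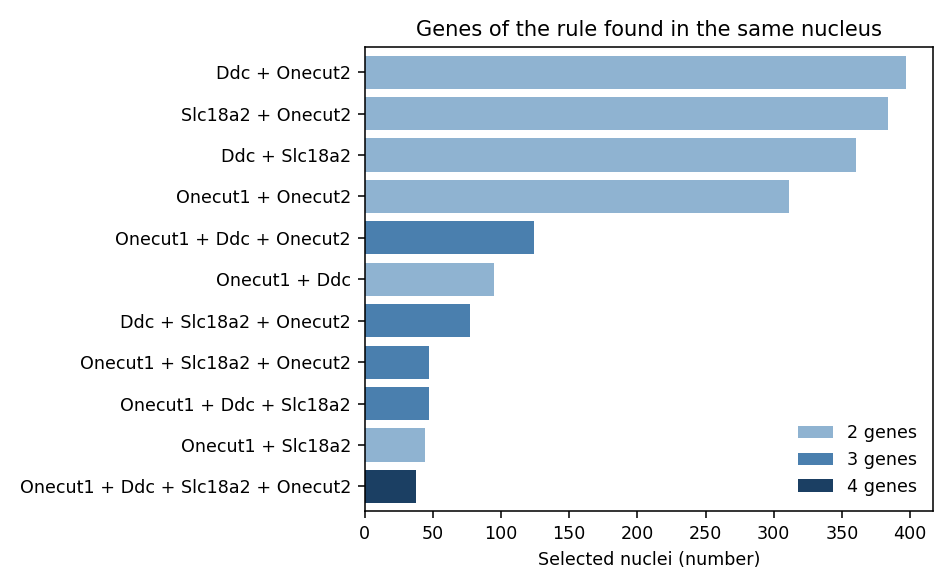
Number of selected nuclei (x axis) with each combination of Onecut1, Ddc, Slc18a2 and Onecut2 (y axis), with darker bars for more genes. The 4 most frequent combinations are pairs, from 397 nuclei with Ddc and Onecut2 to 311 with Onecut1 and Onecut2, and 38 nuclei hold all 4 genes.

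Genes that the rule did not use differed between nuclei with only monoamine genes and those with only Onecut genes. Th, the enzyme that makes L-DOPA, was detected in 16.7% of the 360 nuclei with Ddc and Slc18a2 only, and in 1.61% of the 311 with both Onecut genes only. Slc6a3, the dopamine transporter of the cell surface, was detected in 12.5% of the former and in 0 of 311 of the latter, which allows up to 0.965% of nuclei with a UMI. Onecut3, the third member of the Onecut family, went the other way, with 2.50% against 18.6%. The 1253 nuclei with both roles lay between, with Th in 5.83%, Slc6a3 in 1.12% and Onecut3 in 9.02%. In the 38 nuclei with all 4 genes, at a median of 11177.5 UMIs, Th and Onecut3 were both detected in 26.3%. The opposition of Th and Onecut3 therefore did not hold over all combinations. Gch1, which makes the cofactor of both hydroxylases, was found in 9.72% of the nuclei with Ddc and Slc18a2 only. The median depths of the 360 and the 311 nuclei were close, 9187 and 8660 UMIs, and the percentages pool nuclei of 12 libraries without a test.

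The levels of the 4 genes are a description, since the rule used them. In CPM, the counts of a gene scaled to a fixed total of UMIs (counts per 1000000) in the selected nuclei of a library, Ddc lay between 136 and 200 with a median of 154, and Onecut2 lay between 106 and 158 with a median of 128. Slc18a2 lay between 73.9 and 151 with a median of 118, and Onecut1 between 34.0 and 73.9 with a median of 53.4. Gad2 lay between 318 and 431 CPM with a median of 348. Its detection in 91.8% of nuclei exceeded that of Gad1, 64.5%, and the rule had required either of them.

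Detection of the 4 genes was also measured in other cell types. In astrocytes, microglia and oligodendrocyte precursors, chosen by marker UMIs, Ddc was detected in 1.28% to 1.38% of nuclei and Onecut2 in 0.940% to 1.15%, at median depths of 1843 to 3554 UMIs. In 13607 oligodendrocytes, with a median of 2447 UMIs, Ddc was detected in 18.1% and Onecut2 in 9.98%, while Slc18a2 was found in 0.963% and Onecut1 in 0.103%. Ddc reached 87.6 CPM and Onecut2 43.1 CPM there, and the source of these UMIs was not tested. In 3527 excitatory nuclei, with a median of 12093 UMIs, Onecut2 was detected in 28.0% and Ddc in 1.64%. At least 2 of the 4 genes were found in 4.14% of the excitatory nuclei, in 2.41% of oligodendrocytes and in 0.211% of astrocytes, beside 4.16% of all inhibitory nuclei. The part of free RNA in the selected nuclei was not tested.

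The label of inhibitory neurons was checked against the transmitter genes. Beside Gad1 and Gad2, of which the rule required either, Slc32a1 was detected in 682 selected nuclei (35.4%), beside 29.2% of the 37240 inhibitory nuclei with none of the 4 genes, whose median depth was 6522 UMIs. Its level was 46.2 CPM over the selected nuclei and 52.2 CPM over the latter, so that no order is read from the share. Th was detected in 138 nuclei (7.17%), and 91 of these had Ddc and Slc18a2 as well, the set of genes that a neuron needs to make and store dopamine. Slc6a3 was detected in 59 nuclei and Tph2, which makes the serotonin precursor, in 20. Dbh, which makes noradrenaline, was detected in 0 of 1924, which allows up to 0.156% of nuclei with a UMI, though not a limit on nuclei that express it. Most selected nuclei had no detected hydroxylase.

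Clustering of the 1924 nuclei without the rule genes gave 23 clusters, 12 of them under 50 nuclei. The largest, with 385 nuclei, was led by Lgr5, Col19a1 and Syt2. The next 2 had among their leading genes Rnf220 and Zfp804b (258 nuclei, 38.8% with the homeodomain factor Isl1), and Abca8a, Scn7a and Pmfbp1 (198 nuclei, 25.8% with Onecut3). Other unnamed clusters were led by Ttn and Prdm16 (129 nuclei), by Shisal2b, Lypd6 and Adarb2 (117), by Npsr1, Lef1 and Gal (96), by Myo5b and Ano1 (79) and by Fign and Piezo2 (61, 52.5% with Pvalb). Each of these 8 large clusters was drawn from at least 11 libraries. No set of markers named these clusters. The cluster with Npsr1, Lef1 and Gal came nearest, since 4 of 6 histaminergic markers, a list that holds the rule gene Slc18a2, were detected at a mean log2 difference of 2.24 from the other selected nuclei, but none was among its 10 leading genes and 1 gene each of 2 other sets was.

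Of 5 clusters that markers named as kinds of neurons, 4 held 12 to 36 nuclei. Cluster 12, with 36 nuclei, was dopaminergic-like. All 36 had Slc6a3, 88.9% had Th, and 94.4% had the dopamine receptor Drd2, at a median of 17381 UMIs. Cluster 22, with 13 nuclei, was dopaminergic-like with 84.6% Th, 46.2% Slc6a3 and, unlike cluster 12, 46.2% Onecut3, and it met the limit for a name narrowly. Cluster 23, with 12 nuclei of 5 libraries, was serotonergic-like, with Tph2 and the serotonin transporter Slc6a4 in all 12. The marker lists were used with the rule genes they hold, and of 6 dopaminergic markers 4 are not rule genes. Every nucleus of clusters 12 and 23 had Ddc and Slc18a2, and in cluster 22 84.6% had Ddc and 100% had Slc18a2. The names of clusters 12, 22 and 23 therefore rest in part on genes that chose the nuclei. Cluster 21, with 16 nuclei, was cholinergic-like, with Chat and the choline transporter Slc5a7 in all 16. Without a name, 18 nuclei of cluster 18 all held Pomc, the precursor of melanocortins and beta-endorphin, and 27 nuclei of cluster 16 were led by Ebf2, Ebf3 and Lmx1a, with Slc18a2 in all of them and Slc6a3 in 25.9%.

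Cluster 4, with 178 nuclei, was striatal medium spiny-like. It was led by Rarb, a retinoic acid receptor of striatal neurons, with Gng7 among its 10 leading genes, and Drd1 was detected in 44.4% of its nuclei. Cluster 8, with 94 nuclei, had Drd1 in 28.7% and stayed unnamed, and both clusters had Meis2 in over 95% of their nuclei (97.8% and 95.7%). Together these 272 nuclei were 14.1% of the total. Clusters 11, 15 and 19 were led by astrocyte, oligodendrocyte and oligodendrocyte precursor genes, with 53, 32 and 18 nuclei, and 67.9% to 77.8% of them had at least 2 UMIs of glial and vascular check genes or very high UMI counts. By the same measure 55.6% of cluster 12, 43.8% of cluster 21, 33.3% of cluster 23 and 7.69% of cluster 22 were possible doublets. Over all selected nuclei, 288 were.

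**Figure D2:**
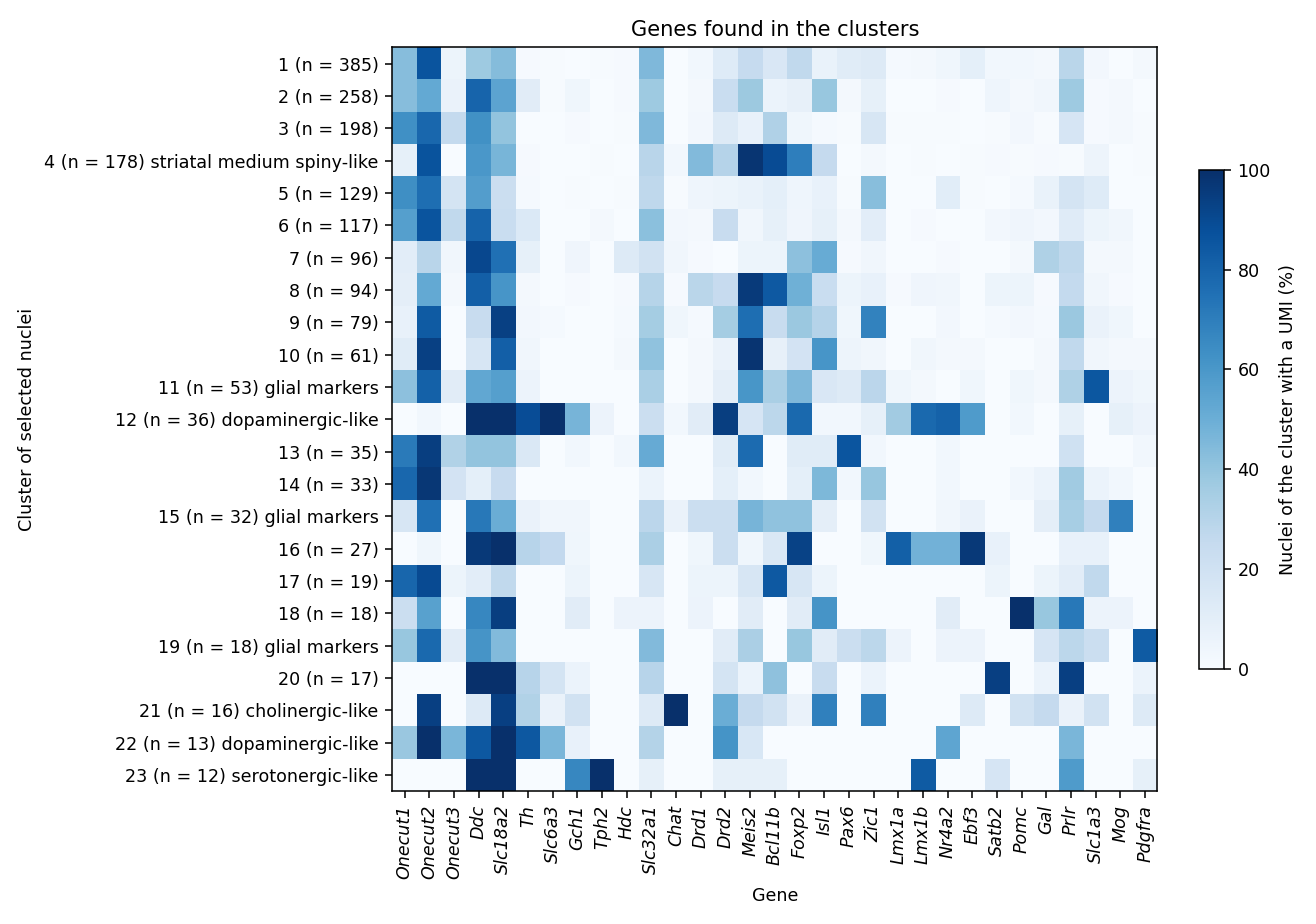
Percent of the nuclei of each cluster (y axis, with its number of nuclei) that had a UMI of each rule, transmitter or marker gene (x axis), with darker cells for higher percentages. Cluster 12 has Slc6a3 in every nucleus and Th in 88.9%, cluster 23 has Tph2 in every nucleus, and the Drd1 clusters 4 and 8 hold 272 nuclei.

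The selected nuclei were then compared with the 37240 inhibitory nuclei that had none of the 4 genes, in sums per library with the library as a block and the rule genes left out. Outside the rule genes, 8 of 14 tested monoamine genes were higher in the selected nuclei. Of 25 telencephalic transcription factors 15 were lower, and of 8 tested genes of GABA and glycine release and uptake 4 were lower. Ddc and Slc18a2, which monoamine neurons use, helped to choose the selected nuclei and had no UMI in the compared ones. The direction of the other monoamine genes is therefore partly set by the rule and is a description. Of 17969 genes tested, 2320 were called (12.9%), 797 higher (4.44%) and 1523 lower (8.48%), with edgeR's quasi-likelihood test. A call needed an adjusted p under 0.05 and a log2 fold change beyond 0.2 in either direction. The selected nuclei were deeper in 12 of 12 libraries, and with both sets limited to nuclei of 5000 to 10000 UMIs, 1808 genes were called.

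The 14 genes of monoamine synthesis, transport and breakdown had a median log2 fold change of 0.67 beside -0.02 over all genes. Of the 14, 0 were called lower, beside 8.48% of all tested genes, so that no result is read from this zero. Slc6a3 was at 0 to 42.6 CPM with a median of 27.1 across the 12 libraries, and at 0.191 CPM over the compared nuclei. It was above the compared nuclei in 11 libraries, and WT replicate 12 at 12 months had none (log2 fold change 6.73 ± 0.27 SE, adjusted p = 2.93e-19). Th ranged from 7.22 to 33.6 CPM with a median of 13.4, and was above the compared nuclei in all 12 libraries (3.18 ± 0.18 SE, adjusted p = 4.95e-15). The cofactor enzyme Gch1 was also higher (2.84 ± 0.29 SE, adjusted p = 4.40e-09).

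The serotonin genes rested on few libraries and the histamine gene was uneven. Tph2 passed the test with a log2 fold change of 4.40 ± 0.55 SE (adjusted p = 1.74e-07), and Slc6a4 with 4.78 ± 0.54 SE (adjusted p = 3.27e-08). Yet the median library held 0.612 CPM of Tph2, and only 5 of 12 libraries were above the compared nuclei. Those 5 were the 3 3xTg-AD libraries at 6 months with 33.8, 58.2 and 43.2 CPM, WT replicate 3 at 6 months with 65.1 CPM, and 3xTg-AD replicate 2 at 12 months with 5.76 CPM. Hdc, which makes histamine, had 0 to 38.9 CPM, a median of 1.46 and 8 of 12 libraries above the compared nuclei (3.13 ± 0.46 SE, adjusted p = 3.57e-06). Slc6a3, Tph2 and Hdc had a UMI in 59, 20 and 26 of the 1924 nuclei.

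Of 8 tested genes of GABA and glycine release and uptake, 0 were higher and 4 lower, beside 4.44% and 8.48% of all tested genes. No result is read from the zero. Slc32a1 was at 29.1 to 73.3 CPM with a median of 44.9, and below the compared nuclei in 11 of 12 libraries (log2 fold change -0.24 ± 0.05 SE, adjusted p = 3.37e-04). The GABA uptake transporter Slc6a11 and the glycine transporter Slc6a5 were lower too. The GABA-A and glycine receptor subunits were divided, with 6 of 19 higher, among them Gabrg1 (0.50 ± 0.04 SE), Gabrq (0.82 ± 0.18 SE) and Glra3 (0.40 ± 0.05 SE), and 5 lower, among them Gabrd (-0.66 ± 0.11 SE) and Gabrr2 (-2.15 ± 0.23 SE).

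Of 47 tested transcription factors of diencephalon and midbrain, 14 were higher and 12 lower, beside 4.44% and 8.48% of all tested genes. Onecut3 was highest, with 4.95 to 16.8 CPM and a median of 10.7, in all 12 libraries above the compared nuclei (4.37 ± 0.19 SE, adjusted p = 1.50e-18). Onecut1 and Onecut2, of the same family, helped to choose the selected nuclei and had no UMI in the compared ones. The direction of Onecut3 is therefore partly set by the rule and is a description. Factors of midbrain dopamine neurons were among the 14, with Foxa2 at 3.69 ± 0.69 SE, Lmx1b at 2.82 ± 0.26 SE, Pitx3 at 2.66 ± 0.43 SE, En1 at 2.42 ± 0.32 SE, Lmx1a at 2.14 ± 0.29 SE and Nr4a2 at 1.60 ± 0.16 SE. These rested on few nuclei, from 11 of 1924 with a UMI of Foxa2, in 6 of 12 libraries, and 25 with Pitx3 to 94 with Nr4a2. Dopamine neurons use Ddc and Slc18a2, which are rule genes, so that the direction of these factors is partly set by the rule as well. Factors of midbrain GABA neurons were among the 12, with Otx2 at -1.62 ± 0.16 SE, Tal1 at -1.49 ± 0.18 SE and Gata3 at -1.11 ± 0.17 SE. The factors of both groups belong to 1 list, so its count does not describe a common direction.

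Of 25 telencephalic factors, 2 were higher and 15 lower, beside 4.44% and 8.48% of all tested genes. Their median log2 fold change was -0.45. Lhx6, which marks interneurons of the medial ganglionic eminence, was at 0 to 5.64 CPM with a median of 2.62, below the compared nuclei in all 12 libraries (-2.32 ± 0.21 SE, adjusted p = 1.99e-10). Sox6 was at 80.1 ± 27.3 CPM against 205 ± 31.2 CPM (SD, n = 12; -1.38 ± 0.08 SE), and Prox1 of caudal interneurons was lower by the same test (-0.94 ± 0.11 SE). Meis2 and Bcl11b, which striatal neurons also use, were among the 15. Of 28 neuropeptide genes, 3 were higher, namely Pomc (2.60 ± 0.32 SE), Ghrh (1.82 ± 0.45 SE) and Gal (1.14 ± 0.19 SE), and 9 were lower, among them the interneuron peptides Sst (-0.96 ± 0.14 SE), Vip (-1.98 ± 0.31 SE) and Npy (-1.08 ± 0.29 SE). Pomc was at 1799 CPM in the 18 nuclei of cluster 18 and at 2.42 CPM in the other selected nuclei, beside 2.67 CPM in the compared nuclei, and Ghrh had a UMI in 21 nuclei.

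Single genes with at least 50 CPM that went one way in all 12 libraries led with 1700042O10Rik, at 91.8 ± 30.2 CPM in the selected nuclei against 4.49 ± 0.982 CPM (SD, n = 12). Its locus, chr11:11868123-11885321 on the plus strand (GRCm38), lies inside Ddc, chr11:11814101-11898144 on the minus strand, so it is not independent of the rule, and whether its reads come from Ddc was not tested. The voltage-gated sodium channel Scn9a was at 213 ± 20.8 against 135 ± 16.4 CPM (0.62 ± 0.04 SE), and the kainate receptor subunit Grik3 at 227 ± 31.7 against 143 ± 8.42 CPM (0.62 ± 0.04 SE). The GDNF receptor Gfra1 was at 178 ± 27.5 against 106 ± 17.2 CPM (0.72 ± 0.05 SE), and the synaptic vesicle protein Sv2b at 91.7 ± 12.2 against 51.2 ± 11.7 CPM (0.83 ± 0.06 SE). Further higher genes by this rule were Zim1, Sulf1, Vwc2l, Fbxl7, Rnf220, Trpc7, 4930447C04Rik, Clstn2 and St8sia6, with log2 fold changes of 0.66 to 0.98.

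The lower genes included factors and matrix genes. Nfib, a nuclear factor I protein, was at 72.4 ± 19.2 against 186 ± 28.7 CPM (SD, n = 12; -1.40 ± 0.04 SE, adjusted p = 1.80e-22). Zeb2, needed for cortical interneuron migration, was at 72.7 ± 26.5 against 164 ± 41.8 CPM (-1.22 ± 0.05 SE), Tcf4 at 205 ± 40.7 against 439 ± 45.3 CPM (-1.14 ± 0.05 SE), and Reln at 77.5 ± 22.5 against 153 ± 20.3 CPM (-1.01 ± 0.08 SE). Of the glial markers, 5 of 6 for astrocytes, 3 of 4 for oligodendrocyte precursors, 2 of 7 for oligodendrocytes and 0 of 6 for microglia were called lower, and none was called higher. Over all tested genes 8.48% were called lower and 4.44% higher. Of the genes named by rule, Apoe and Vcan are glial. The rule itself limited Mobp in both sets.

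**Figure D3:**
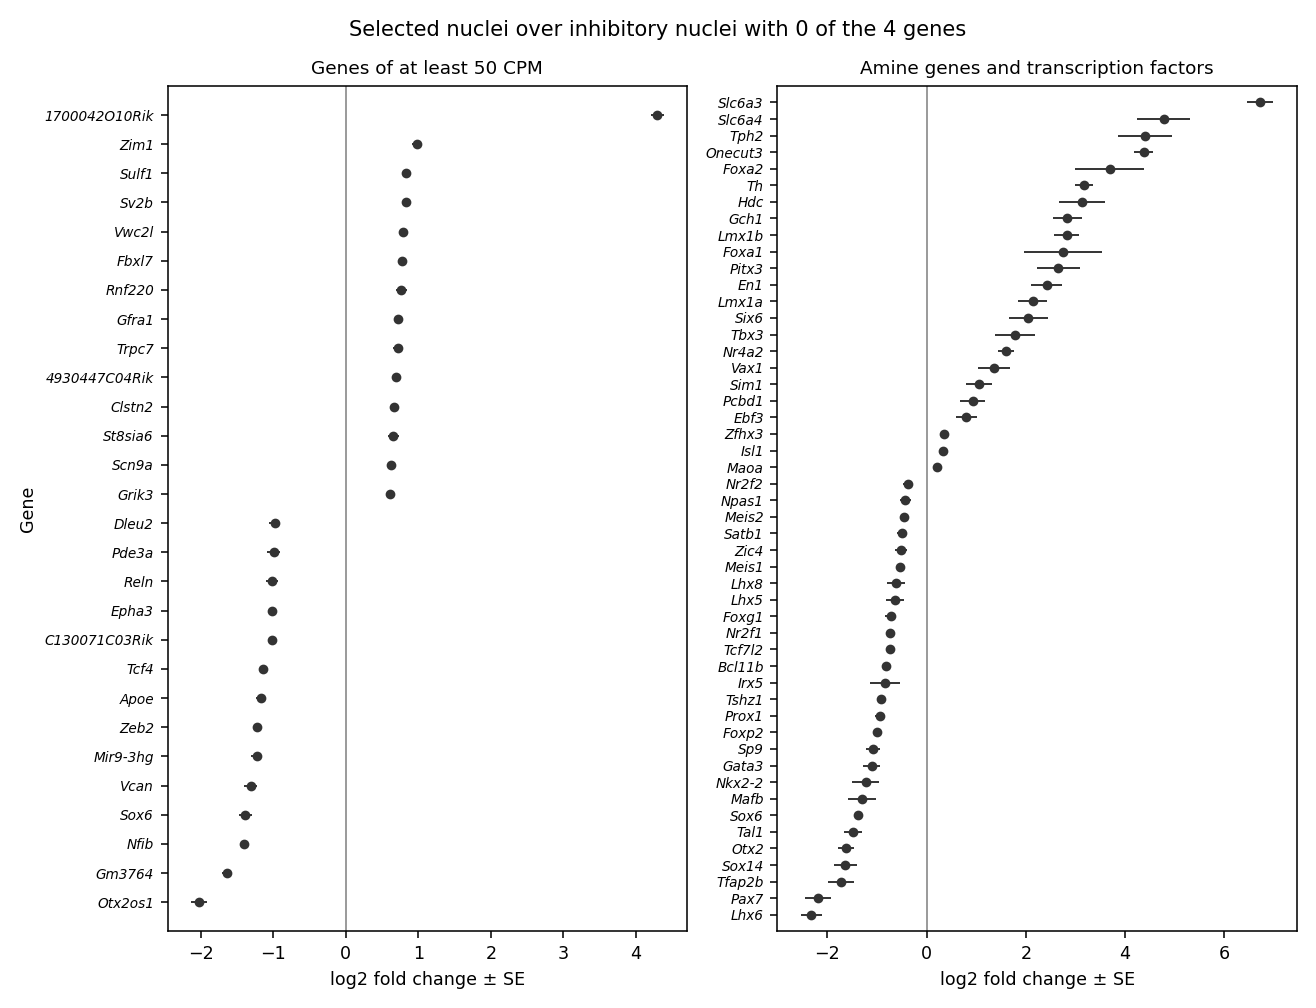
Log2 fold change with SE (x axes) of called genes (y axes) in the selected nuclei over inhibitory nuclei with none of the 4 genes, over 12 libraries, for genes of at least 50 CPM (left) and for monoamine genes and transcription factors (right). The right panel shows Slc6a3 at 6.73 and Onecut3 at 4.37 on the higher side and Lhx6 at -2.32 on the lower side.

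The inhibitory nuclei with Esr1 of 2 or more, 2467 in all, were compared as a set of like depth, with a median of 9191 UMIs against 9180 and 203 nuclei that also had 2 or more of the 4 genes. The rule separated both sets by Esr1, the estrogen receptor alpha. Of 12814 genes tested, 1616 were called (12.6%), 877 higher in the selected nuclei (6.84%) and 739 lower (5.77%), and DESeq2 called 1067. Of 11 tested monoamine genes 7 were higher and 0 lower, among them Slc6a3 (3.98 ± 0.32 SE, adjusted p = 9.91e-10), Th (1.38 ± 0.23 SE, adjusted p = 8.63e-05) and Hdc (2.63 ± 0.55 SE, adjusted p = 0.00124). The rule chose the selected nuclei by Ddc and Slc18a2 among others, so that this direction of the monoamine genes is partly set by it. Genes of GABA release did not pass the test in either direction, 0 of 6.

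Of 33 tested hormone and peptide receptors, 12 were lower in the selected nuclei and 3 higher, with a median of -0.14 and the others not past the test. Over all tested genes of this comparison 5.77% were lower and 6.84% higher. The prolactin receptor Prlr was at 64.6 ± 21.2 against 267 ± 51.6 CPM (SD, n = 12; -2.03 ± 0.09 SE, adjusted p = 5.58e-14). The progesterone receptor Pgr was at 51.6 ± 7.58 against 110 ± 35.2 CPM (-1.06 ± 0.10 SE, adjusted p = 1.16e-08). Esr2 was lower too (-2.87 ± 0.20 SE). These receptors are known to share neurons with Esr1, by which the compared nuclei were chosen. Lower peptides were Tac2 (-2.35 ± 0.22 SE), Nts (-1.68 ± 0.30 SE), Gal (-1.19 ± 0.14 SE) and Ghrh (-1.85 ± 0.35 SE), so that Gal and Ghrh stood above the nuclei without the 4 genes but below the Esr1 nuclei.

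All 7 tested striatal medium spiny markers were higher than in the Esr1 nuclei, for example Drd1 (1.05 ± 0.20 SE), Ppp1r1b (1.62 ± 0.24 SE) and Bcl11b, and Meis2 was at 455 ± 179 against 207 ± 86.8 CPM (SD, n = 12; 1.15 ± 0.06 SE). Without the 272 nuclei of the Drd1 clusters, 0 of 5 tested were higher and 1 was lower, but those clusters were chosen by one of these markers, so that this count is a description. Drd2 was at 52.0 ± 22.0 against 18.4 ± 7.81 CPM (1.47 ± 0.14 SE, adjusted p = 3.91e-08), the serotonin receptor Htr1f at 139 ± 31.8 against 64.7 ± 20.8 CPM (1.11 ± 0.10 SE) and the dachshund family factor Dach1 at 201 ± 54.1 against 87.4 ± 23.1 CPM (1.20 ± 0.08 SE). Onecut3 stood above the Esr1 nuclei as well (2.47 ± 0.25 SE, adjusted p = 5.12e-08). The rule used Onecut1 and Onecut2 of the same family, so that this direction is partly set by it.

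The share of selected nuclei did not differ between genotypes or ages beyond the spread of libraries. At 6 months the share of retained nuclei was 0.918%, 1.00% and 1.28% in 3xTg-AD and 1.40%, 0.976% and 1.08% in WT. At 12 months it was 1.05%, 0.834% and 0.959% in 3xTg-AD and 0.932%, 0.831% and 1.35% in WT. The groups overlapped at both ages. The shares of 1.40%, 1.35% and 1.28% came from the libraries of highest median depth, 6698.5, 6481 and 6005 UMIs per retained nucleus. The next deepest, 3xTg-AD replicate 1 at 6 months with 5944.5 UMIs, had 0.918%. These shares are not corrected for depth. The difference of 3xTg-AD minus WT was -0.0839 percentage points at 6 months (exact permutation test, two-sided, p = 0.6) and -0.0896 at 12 months (exact p = 0.9), where 3 against 3 libraries cannot go below 0.1. Over both ages it was -0.0867 (exact stratified permutation p = 0.455), and 12 minus 6 months was -0.118 (exact p = 0.29), with adjusted p of 0.8 to 0.9 over the 4 tests. As a percent of inhibitory nuclei, it was 2.92%, 2.42% and 3.77% in 3xTg-AD and 5.06%, 3.15% and 5.57% in WT at 12 months, a difference of -1.55 percentage points with overlapping groups (exact permutation test, two-sided, p = 0.2).

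**Figure D4:**
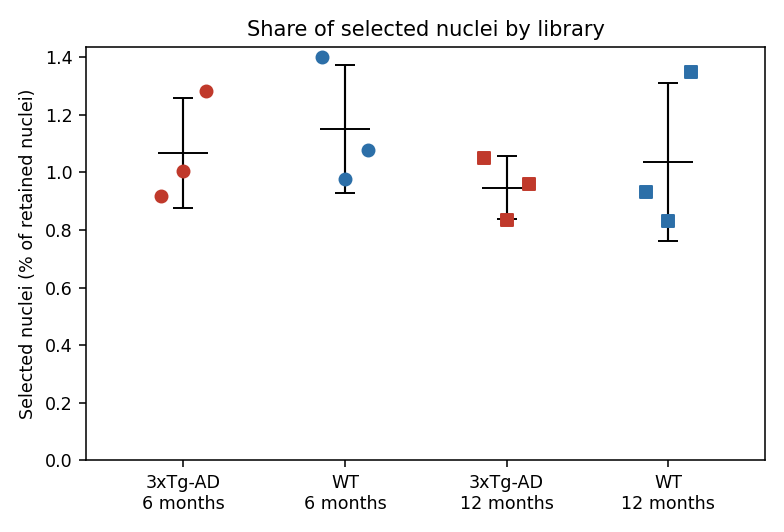
Selected nuclei as a percent of retained nuclei (y axis) in each library by genotype and age (x axis), with points for libraries and the group mean ± SD. The 12 libraries lie between 0.831% and 1.40%, and the groups overlap at both ages.

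Between genotypes at 6 months, few genes of the selected nuclei differed. Of 11212 tested, 19 were called (0.169%), 5 higher and 14 lower in 3xTg-AD, and DESeq2 called 21. Beside the rule genes, the lists of monoamine genes, GABA genes, transcription factors and neuropeptides had 0 called members. Leaving out 3xTg-AD replicate 1 or replicate 5 reduced the count to 9 each.

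Among the 5 higher genes the smallest adjusted p was that of Rnf152, a ubiquitin ligase of lysosomes at chr1:105276914-105356710. It was at 267, 182 and 147 CPM in the 3xTg-AD libraries and 49.4, 46.0 and 40.4 CPM in the WT libraries at 6 months. At 12 months it was at 132, 186 and 143 CPM against 103, 63.4 and 51.4 CPM. The genotypes did not overlap at either age, as for 12.98% of all genes tested at 6 months and 17.03% at 12 months (log2 fold change 2.14 ± 0.20 SE, adjusted p = 0.000210, and 1.11 ± 0.23 SE, adjusted p = 0.0172).

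Of the 19 genes, 7 were called at both ages, which is 36.8% of the 19 and 3.68% of the 190 called at 12 months, and 6 of the 7 had the same sign. Each age had its own libraries. The gene model Gm17167, at chr4:42206998-42235313, was at 0, 0.646 and 0 CPM in 3xTg-AD and 27.4, 19.6 and 19.9 CPM in WT at 6 months, and at 0.640, 0 and 0 against 19.7, 22.8 and 18.2 CPM at 12 months. With 1 UMI per age in the 3xTg-AD libraries, the pooled ratio of WT to 3xTg-AD was 126 at 6 months (95% exact counting interval 22.1 to 4998) and 94.9 at 12 months (16.6 to 3794). Bet1, a SNARE protein of transport between endoplasmic reticulum and Golgi at chr6:4076899-4086972, was at 13.02, 9.69 and 13.1 CPM against 38.2, 60.8 and 66.9 CPM at 6 months (-2.14 ± 0.24 SE, adjusted p = 0.00135), and at 19.2, 12.7 and 13.3 against 40.7, 50.5 and 60.1 CPM at 12 months (-1.67 ± 0.22 SE, adjusted p = 0.00131). The genotypes did not overlap for either gene at either age, as for 12.98% of all genes tested at 6 months and 17.03% at 12 months.

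Cfap54, a gene of ciliary axonemes at chr10:92775619-93081618, was lower in 3xTg-AD by -1.39 ± 0.16 SE at 6 months (adjusted p = 0.00211) and -1.36 ± 0.14 SE at 12 months (adjusted p = 2.59e-04). Lynx1, a brake on nicotinic acetylcholine receptors, was at 21.5, 26.5 and 30.5 against 50.6, 56.8 and 49.4 CPM at 6 months (-0.95 ± 0.17 SE, adjusted p = 0.0402), and was lower at 12 months as well (-0.95 ± 0.19 SE, adjusted p = 0.0154). A copy of the chemokine Ccl27a was lower at both ages (-2.80 ± 0.42 SE and -3.51 ± 0.46 SE) but is uncertain, since another gene of the table has the same symbol and reads may be divided between copies. Arpp21, a cAMP-regulated phosphoprotein of striatal and cortical neurons, was lower at 6 months (-0.70 ± 0.12 SE, adjusted p = 0.0410) and higher at 12 months (0.97 ± 0.19 SE, adjusted p = 0.0120).

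At 12 months, 190 of 11245 genes were called (1.69%), 142 higher in 3xTg-AD (1.26%) and 48 lower (0.427%), and most of the higher genes were those of the Drd1 clusters. Rarb, at chr14:16430839-16819156, was at 402, 489 and 168 CPM in 3xTg-AD and 44.9, 52.5 and 64.5 CPM in WT (2.79 ± 0.31 SE, adjusted p = 4.47e-04). Gng7, a G protein subunit of dopamine receptor signaling, was at 136, 185 and 66.1 against 21.5, 21.8 and 26.3 CPM (2.53 ± 0.32 SE, adjusted p = 0.00108). Rgs9, a regulator of G protein signaling enriched in striatum, was at 198, 306 and 118 against 52.7, 42.6 and 62.6 CPM (2.02 ± 0.28 SE, adjusted p = 0.00175). The genotypes did not overlap for these 3 genes, as for 17.03% of all genes tested at 12 months, and 3xTg-AD replicate 10 was the lowest of its group for each.

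List genes called higher at 12 months were the dopamine receptor Drd3 (1.89 ± 0.35 SE), the GABA-A subunits Gabra4 (1.07 ± 0.21 SE) and Gabrd (2.92 ± 0.55 SE), the factors Bcl11b (2.01 ± 0.32 SE), Foxp1 (1.06 ± 0.20 SE), Meis2 (1.30 ± 0.23 SE) and Ebf1 (1.32 ± 0.23 SE), the peptides Penk (2.75 ± 0.44 SE) and Tac1 (2.33 ± 0.33 SE), and the immediate-early genes Arc (2.73 ± 0.49 SE), Junb (1.49 ± 0.29 SE) and Egr1 (1.35 ± 0.25 SE). None of the list genes was called lower, beside 0.427% of all tested genes. Of 6 tested genes of monoamine synthesis, transport and breakdown 0 were called, beside 1.69% of all, so that no result is read from these zeros. Most of these genes are known for striatal projection neurons.

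The share of selected nuclei in the Drd1 clusters moved with these values. It was 27.8%, 33.6% and 13.2% in the 3xTg-AD libraries at 12 months, and 0%, 0.909% and 2.61% in the WT libraries, where 0 of 168 nuclei allows up to 1.79%. At 6 months it was 6.15%, 8.81% and 19.2% in 3xTg-AD and 14.7%, 14.7% and 23.5% in WT, where the genotypes overlapped. The 7 striatal markers summed to 1124 to 2013 CPM in 3xTg-AD and 783 to 970 CPM in WT at 12 months, with Ppp1r1b at 0 in all 3 WT libraries, and to 1047 to 1497 and 1131 to 2072 CPM at 6 months. Pde10a gave most UMIs of each sum, and 144 of 168 nuclei of WT replicate 4 at 12 months had it. The sums therefore mainly follow this gene. Of the markers, Rgs9 and Bcl11b were called at 12 months and Pde10a was not. Of the 142 genes higher at 12 months, 123 (86.6%) were over 1 log2 unit higher in the Drd1 clusters than in the other selected nuclei, beside 3.33% of all tested genes. Both differences were measured in the same selected nuclei, so that this overlap is a description.

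Without the 272 nuclei of the Drd1 clusters, 19 genes were called at 12 months, 17 of them among the 190. Those clusters were chosen by a striatal marker after the data were seen, so that the loss of striatal genes is a description. Rarb was at 1.18 (adjusted p = 0.101), Gng7 at 1.04 (adjusted p = 0.269) and Rgs9 at 0.86 (adjusted p = 0.140) without them, and the list genes above were not called. Of the 7 genes called at both ages, Lynx1 (-0.72 ± 0.20 SE, adjusted p = 0.275) and Arpp21 (0.28 ± 0.16 SE, adjusted p = 0.900) were not called at 12 months without the clusters, nor was Lynx1 at 6 months (-0.86 ± 0.18 SE, adjusted p = 0.0762), whereas the copy of Ccl27a, Gm17167, Cfap54, Bet1 and Rnf152 were, the last 3 at -1.55 ± 0.16 SE, -1.67 ± 0.25 SE and 1.41 ± 0.23 SE. The count was 39 without 3xTg-AD replicate 2, 113 without replicate 6, 119 without WT replicate 8, 109 without WT replicate 12 and 510 without 3xTg-AD replicate 10, the 3xTg-AD library with the lowest share of Drd1 cluster nuclei at that age. Lower genes at 12 months beside those named included Rnf121, at 45.4, 41.0 and 44.4 against 132, 95.1 and 121 CPM (-1.36 ± 0.16 SE, adjusted p = 6.86e-04), and Sav1 of the Hippo pathway, at 15.4, 17.0 and 20.5 against 55.7, 54.5 and 43.2 CPM (-1.46 ± 0.21 SE, adjusted p = 0.00192).

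**Figure D5:**
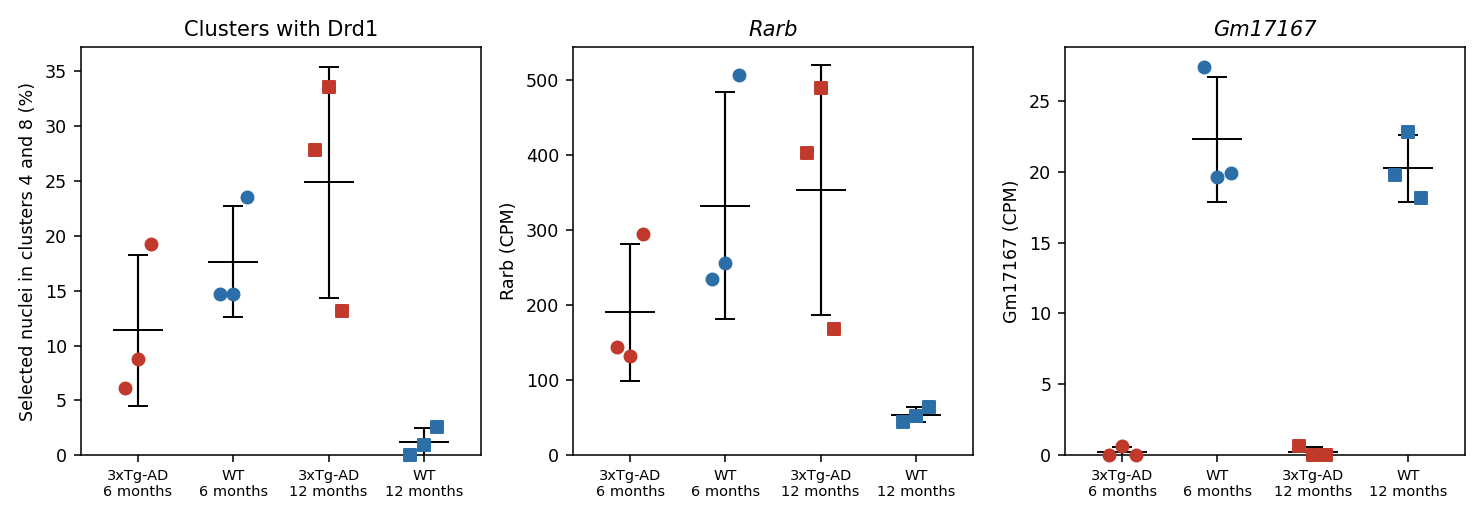
Percent of selected nuclei in the Drd1 clusters, Rarb and Gm17167 in CPM (y axes) by library, genotype and age. At 12 months Rarb and the Drd1 clusters are higher in the 3 3xTg-AD libraries than in the 3 WT libraries, and Gm17167 is at or near 0 in all 6 3xTg-AD libraries at both ages.

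The genotype difference itself changed with age for 93 of 11871 genes (0.783%), 87 in the direction of higher values in 3xTg-AD at 12 months, by the interaction term. Rarb was at 144, 132 and 295 against 235, 255 and 506 CPM at 6 months, with overlapping groups, and the interaction was 3.54 ± 0.51 SE (adjusted p = 0.00441). Strip2 was at 30.6, 29.7 and 37.3 against 38.2, 41.9 and 41.0 CPM at 6 months and at 53.1, 54.5 and 35.0 against 14.4, 15.8 and 14.4 CPM at 12 months (1.998 ± 0.29 SE, adjusted p = 0.00441), but its interaction was -0.12 without the Drd1 clusters. Of the 87 genes, 78 (89.7%) were over 1 log2 unit higher in the Drd1 clusters, again a description from the same nuclei. Without those clusters 1 gene was called, and leaving out any 1 library gave 11 to 290.

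Between 12 and 6 months, 0 of 11584 genes were called (0%) with edgeR, and 0 with DESeq2, while 496 had an unadjusted p under 0.05. The serotonin genes had the lowest fitted values, with Slc6a4 at -5.76 ± 1.15 SE and Tph2 at -4.79 ± 0.98 SE (both adjusted p = 0.331), for which WT replicates 7 and 11 at 6 months had no UMI and the 12-month libraries 0 to 5.76 CPM of Tph2. The lysosomal membrane protein Lamp1 had a log2 difference of 0.52 ± 0.11 SE (adjusted p = 0.331). None of these passed the test.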

How the data were processed

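Nuclei were sorted and profiled by 10x 3′ chemistry, and the authors used Cell Ranger 6.1.1 with the mm10 genome (GRCm38). The deposited matrices hold raw UMI counts per gene and nucleus, without normalization and before removal of ambient RNA. All barcodes with 500 to 10000 genes were used. The members and gene lists were chosen with earlier results of these data known.

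Counts of the selected nuclei were summed per library. Genotypes were compared at each age on its own in edgeR 4.0.16 (R 4.3.3), with TMM factors, filterByExpr, quasi-likelihood tests and Benjamini-Hochberg adjusted p. Rule genes were left out of comparisons between sets of nuclei, which had the library as a block. The SE of a log2 fold change is its absolute value divided by the square root of the F statistic. It was not fitted separately and is approximate for genes with few counts. DESeq2 1.42.0 was the alternative, and the test was checked on simulated data. Shares were compared by exact permutation over libraries. Clusters used 1500 variable genes, 30 components, 15 neighbours and a Leiden resolution of 0.6. Doublets were not removed in the main analysis. They were marked by 2 or more UMIs of glial and vascular genes or UMIs above the 95th percentile of their library. Drd1 clusters have Drd1 in at least 25% of nuclei. Positions are from GENCODE vM21.

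Single genes named are the rule, list and transgene genes, up to 10 called genes per direction of smallest adjusted p whose groups do not overlap, and for sets of nuclei the 15 per direction of largest change with at least 50 CPM and 1 direction in 12 libraries. The genes named at both ages and in the Drd1 clusters were chosen after their values were seen. Groups come from GEO's labels, and 1 library is 1 mouse. Some genes that this rule names are not reported here.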

Additional observations from a re-analysis of the deposited data

Results flagged for a closer look

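The interaction term called 93 genes whose difference between 3xTg-AD and WT changed from 6 to 12 months. Values are the 12-month minus the 6-month log2 difference of 3xTg-AD over WT. The values in the direction of 3xTg-AD at 12 months were 1.998 for Strip2, 3.54 for Rarb, 3.79 for the carbonic anhydrase Car12, 1.66 for Arpp21, 2.51 for AC149090.1, 3.31 for Arhgap10 and 1.70 for the receptor Gpr149. The gene models Gm49906, Gm10754 and 6530403H02Rik gave 4.34, 3.40 and 4.59. The opposite values were -1.52 for Zeb2, -0.77 for the potassium channel protein Kcnip1, -1.88 for Gm32828, -0.74 for Sez6l, -0.88 for the amino acid transaminase Bcat1 and -1.01 for Zbtb16. AC149090.1 was not placed on a chromosome in the annotation used, at 208, 183 and 128 CPM in 3xTg-AD against 657, 794 and 908 CPM in WT at 6 months and 445, 456 and 813 against 610, 255 and 510 CPM at 12 months. The share of nuclei in Drd1 clusters moved with most of these genes, as given above, and 1 gene was called without those clusters, where Strip2 was at -0.12.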

How the results depend on the processing

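No paired analysis was possible because the groups compared share no replicate number. As a share of inhibitory nuclei the genotype difference at 12 months was -1.55 percentage points (exact permutation p = 0.2). Some other settings of shares changed the sign without passing a test. These were 0.245 percentage points for 12 minus 6 months as a share of inhibitory nuclei, 0.0241 for genotype at 6 months with at least 3 of the 4 genes, and ranges of -0.191 to 0.0413 at 6 months and -0.192 to 0.0658 at 12 months when a library was left out, with the positive values without WT replicates 3 and 12.

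Calls at 6 months were 146 without the filter on low counts, 12 without possible doublets, 2 with at least 3 of the 4 genes and 9 to 25 with a library left out. At 12 months they were 535, 2 with at least 3 of the 4 genes, 19 without the Drd1 clusters and 39 to 510 with a library left out. Age gave 46 without the filter and 0 to 3 with a library left out, 2 without WT replicate 3 and 3 without WT replicate 11. The interaction gave 404 without the filter, 44 without doublets, 1 without the Drd1 clusters and 11 to 290 with a library left out. Against nuclei without the 4 genes, 1093 were called without the library block. Against Esr1 nuclei, 946 were called without it, 1067 by DESeq2 and 837 at 5000 to 10000 UMIs. Where libraries or nuclei were left out fewer entered the test, and the cause of the other changes was not tested. The settings without Drd1 or glial clusters were chosen after seeing the data.

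Against nuclei without the 4 genes, 630 of 630 values of 30 genes kept sign and call, and 596 of 600 values of 30 genes against Esr1 nuclei. The genes of these 2 comparisons had been chosen for a large change, at least 50 CPM and the same direction in every library. That choice favours a kept sign when a library is left out. The counts do not cover the list genes named above, such as Tph2, Hdc, Slc6a3 and Foxa2. The other comparisons kept 211 of 255 values at 6 months, with 37 no longer called and 7 reversed, 327 of 349 at 12 months, with 17 and 5, and 200 of 287 for the interaction, with 86 and 1. For age 163 of 176 were kept and 13 became calls. Against Esr1 nuclei, Ptk2b reversed to -0.27 without the Drd1 clusters. Strip2 reversed to -0.12 in the interaction without them. At 6 months Mapt was -0.0192 without doublets and -0.0512 to 0.0593 with a library left out, and Thy1 was -0.145 to 0.0758 with a library left out, 0.0258 when thinned and 0.0929 without the Drd1 clusters. At 12 months Mapt was -0.0415 without doublets, -0.0399 to 0.0944 with a library left out and -0.0129 without glial clusters, and Thy1 was -0.0627 with at least 3 of the 4 genes. None of these passed the test. Each group of 3 libraries limits what the tests can show, and intervals of counts cover counting error only.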
